A study of Rattus norvegicus and Sus scrofa and Bos taurus with 188 samples.

Results

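Cohesin is the protein ring that holds sister chromatids together and folds chromosomes into loops, and CTCF is the DNA-binding protein at which many of those loops end. The levels of 10 genes of this machinery were read in pig morulae: SMC1A, RAD21, STAG1 and STAG2 (subunits of mitotic cohesin), SMC3 (shared by mitotic and meiotic rings), SMC1B, REC8 and STAG3 (subunits of meiotic cohesin), NIPBL (part of the cohesin loader) and CTCF. They were chosen by name from a deposited table, and all 10 had at least 1 row there, out of 15877 gene names. The NIPBL partner MAU2 belongs to the fixed list of regulators described further on.

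The study profiled DNA methylation, histone marks and RNA in oocytes, early embryos and some other cells, with 188 samples in 90 groups here. The values below come from 1 group, the RNA of pig morulae whose titles carry the mark PG, which sister samples spell out as parthenogenetic activation. Such embryos develop from an activated egg without sperm. No breed, age, cell number or embryo number is given in the labels of this group, and no control group stands beside it here. Its 4 Smart-seq2 libraries (full-length cDNA of polyadenylated RNA) were merged by the authors into 1 column of FPKM, fragments per kilobase of transcript per 1000000 mapped fragments. No value below therefore has a replicate spread, an SD or a test, the depth is unknown, and each comparison sets genes against genes of the same merged libraries. FPKM is corrected for transcript length, so levels of different genes can be set side by side, as far as the transcript models hold. A gene's level is its highest transcript row unless the sum of its rows is named.

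In the cohesin ring, a pair of SMC proteins joins at a hinge, and their ATPase heads are bridged by a kleisin, which is RAD21 in mitosis and REC8 or RAD21L1 in meiosis. A STAG protein binds the kleisin. Germ cells swap SMC1A, RAD21 and STAG1 or STAG2 for SMC1B, REC8 or RAD21L1, and STAG3, although SMC1A and RAD21 rings persist there too. In mouse oocytes, meiotic cohesin laid down before birth keeps homologous chromosomes joined until the meiotic divisions, and cleavage of the kleisin by separase then lets them part. A morula divides by mitosis, and many RNAs of the egg may persist in it.

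The marker genes of the label were present. All 10 morula markers stood at 1 FPKM or more, from 3.16 FPKM for GATA3 to 194 FPKM for TFAP2C. The counts at 1 FPKM in this paragraph stand beside 48.8% of all genes. Of 10 oocyte markers 9 reached 1 FPKM, with OOSP2 at 179 FPKM, H1FOO at 90.3 FPKM, WEE2 at 65.1 FPKM and BMP15 at 48.1 FPKM. ZP2 at 5.00 FPKM, ZP3 at 1.44 FPKM and NOBOX at 1.39 FPKM were lower, and FIGLA was listed at 0. At 5 FPKM the counts were 9 of 10 morula and 6 of 10 oocyte markers, beside 28.4% of all genes. The summed level was 540 FPKM over the morula list and 419 FPKM over the oocyte list. Markers of other cells were low: 1 of 10 measured cumulus and granulosa genes reached 1 FPKM (FST at 16.9 FPKM), with FSHR, INHA and FOXL2 listed at 0 and AMH at practically 0. The same held for 1 of 8 spermatid genes (SPACA1 at 9.24 FPKM, with PRM1, PRM2, TNP2, ACR and ODF1 listed at 0) and 1 of 8 fibroblast genes (THY1 at 1.83 FPKM). Their summed levels were 18.4, 9.60 and 3.28 FPKM for the cumulus, spermatid and fibroblast lists. For the genes listed at 0 in this paragraph, an exact 0 in a table without counts may be a failed estimate. The part of RNA left from the egg in the levels below was not tested.

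Of the 10 cohesin, NIPBL and CTCF genes 8 stood at 1 FPKM or more, beside 48.8% of all genes. Their median level was 6.98 FPKM, against 0.916 FPKM over all 15877 genes, and 12.6 FPKM against 1.06 FPKM by summed rows. Over the genes of the table at 1 FPKM or more, the median was 6.89 FPKM by the highest row, close to that of the set. RAD21 was highest at 42.4 FPKM, followed by SMC3 at 33.5 FPKM, STAG2 at 14.5 FPKM and SMC1B at 9.59 FPKM. CTCF at 7.71 FPKM, SMC1A at 6.25 FPKM, STAG1 at 5.46 FPKM and NIPBL at 4.59 FPKM came next. STAG3 at 0.555 FPKM and REC8 at 0.0480 FPKM were the genes below 1 FPKM, both of them meiotic forms. At a threshold of 0.5 FPKM the count was 9 of 10, beside 56.5% of all genes, at 5 FPKM it was 7, beside 28.4%, and at 10 FPKM it was 3, beside 20.2%. Scaled so that the table sums to 1000000, 9 of 10 stood at 1 or more, beside 61.3%. With no replicates, it cannot be said which neighbours in this order differ beyond their spread.

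**Figure D1:**
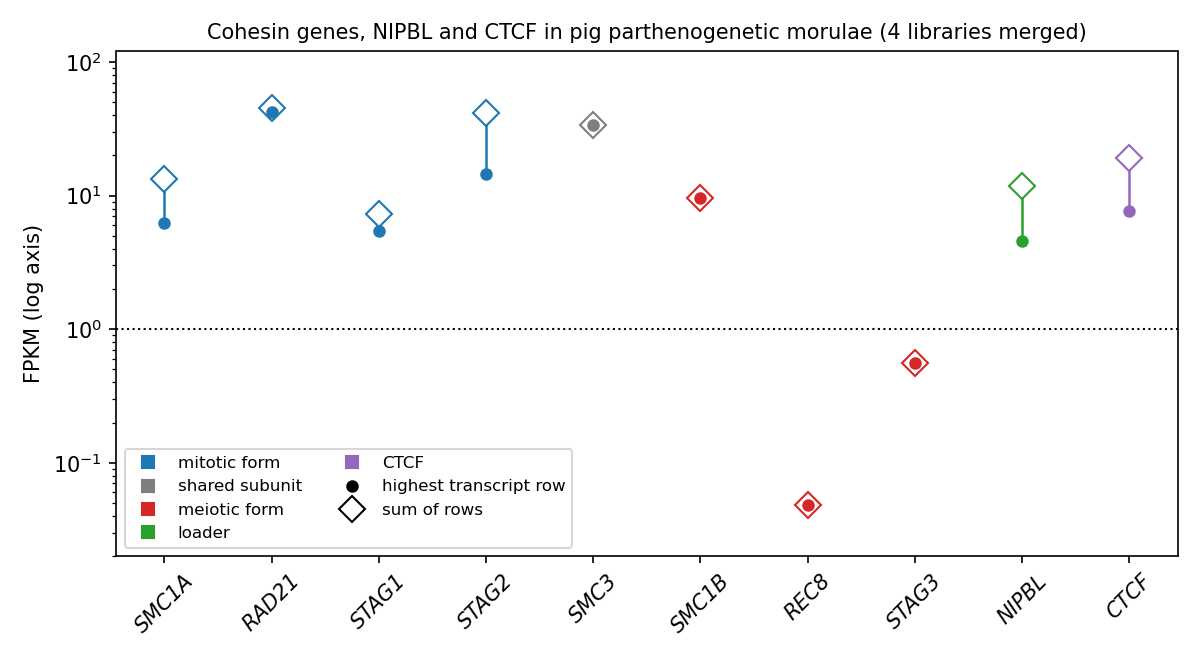
Level of each gene in FPKM on a log axis, as the highest transcript row (filled circle) and as the sum of its rows (open diamond), with a dotted line at 1 FPKM and colours for the role. RAD21 and SMC3 lead by the highest row, and REC8 (0.0480 FPKM) and STAG3 (0.555 FPKM) lie below the line.

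The genes differed in how many transcript rows share their signal. SMC3, SMC1B, REC8 and STAG3 had 1 row each, while the other 6 genes had 3 to 7, and all 34 rows were above 0. Of these rows 22 (64.7%) reached 1 FPKM, beside 30.3% of the 37571 rows of the table. Summing the rows changed the order: RAD21 at 45.2 FPKM was followed by STAG2 at 41.3 FPKM, SMC3 at 33.5 FPKM, CTCF at 19.1 FPKM, SMC1A at 13.3 FPKM and NIPBL at 11.8 FPKM. SMC1B kept its single value of 9.59 FPKM and STAG1 came to 7.26 FPKM. The summed count at 1 FPKM or more was again 8 of 10, beside 50.6% of all genes, and at 10 FPKM it was 6, beside 22.7%.

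The shared and mitotic ring subunits were all expressed. SMC3, the ATPase found in every cohesin ring, had its whole 33.5 FPKM in 1 row and exceeded 91.1% of all genes. RAD21, the mitotic kleisin, exceeded 92.7% of all genes, and 93.9% of its summed level lay in 1 row (42.4 FPKM), with 2.71 and 0.0326 FPKM in the others. SMC1A, the partner of SMC3 in mitotic rings, was spread over 6 rows at 6.25, 4.37, 1.76, 0.666, 0.152 and 0.0751 FPKM. Its 2 leading rows held 80.0% of its sum, and no single transcript carried most of its signal (47.1% in the highest).

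STAG1 and STAG2 are the alternative mitotic STAG subunits. STAG2 had 7 rows, at 14.5, 12.7, 7.13, 2.54, 2.48, 1.49 and 0.396 FPKM, of which the leading 3 held 83.3% of the sum. STAG1 had 3 rows at 5.46, 1.33 and 0.468 FPKM. STAG2 was therefore 2.66-fold above STAG1 by the highest row and 5.69-fold above it by summed rows.

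The loader and the loop anchor were also split over rows. NIPBL, which with MAU2 loads cohesin and drives its ATPase, had 6 rows at 4.59, 3.85, 2.78, 0.294, 0.263 and 0.0767 FPKM, and the leading 3 held 94.7% of the sum. CTCF had 5 rows at 7.71, 7.63, 2.18, 1.27 and 0.332 FPKM. Its leading 2 rows differed by little and held 80.2% of the sum together.

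**Figure D2:**
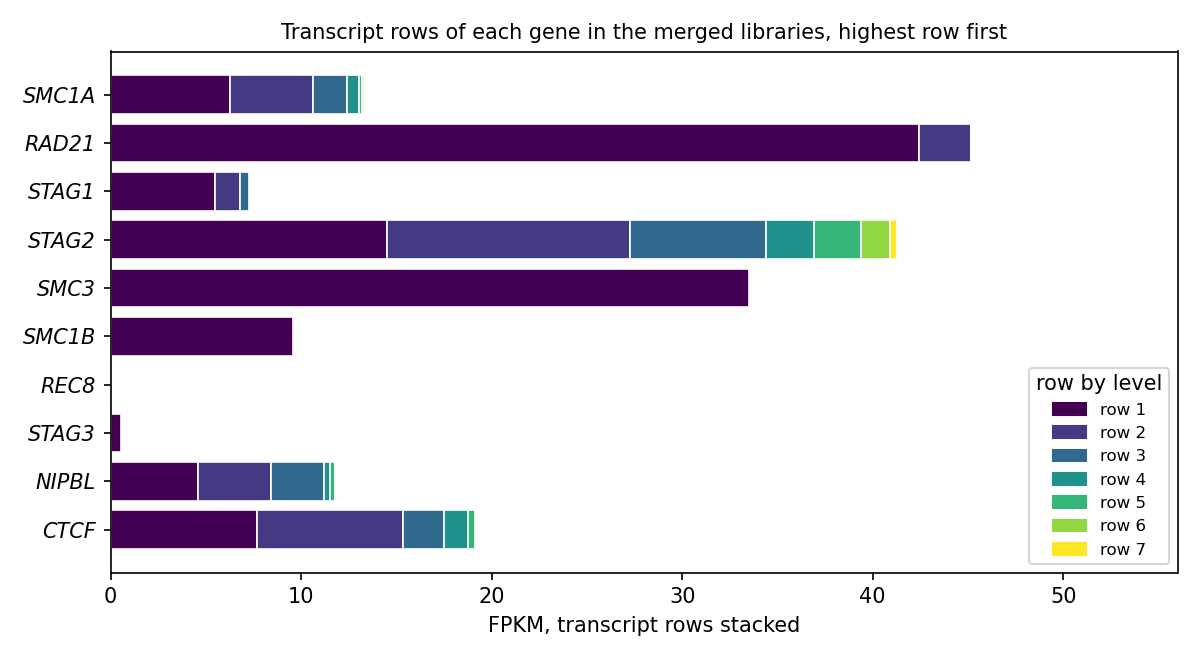
Transcript rows of each gene stacked along an FPKM axis, the highest row at the left (dark) and lower rows to its right (lighter). No row of STAG2, CTCF, NIPBL or SMC1A carries most of the gene's sum, RAD21 is carried almost wholly by 1 row, SMC3 has 1 row, and the bar of REC8 (0.0480 FPKM) is too short to see.

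Mitotic and meiotic forms of the same ring position were then compared. For the kleisin, RAD21 stood at 42.4 FPKM against 0.0480 FPKM for REC8, an 884-fold ratio and a difference of 5.37 in log2(FPKM + 1). The other meiotic kleisin, RAD21L1, was at 0.0319 FPKM, so RAD21 made up 99.8% of the 3 kleisin genes together. REC8 lay near the bottom of the table, above 23.4% of all genes, and neither meiotic kleisin approached 1 FPKM in any row. A ratio over a level this low is imprecise, since the reads behind it are not known.

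For the STAG position, STAG2 at 14.5 FPKM exceeded STAG3 at 0.555 FPKM by 26.2-fold (3.32 in log2(FPKM + 1)). STAG1 at 5.46 FPKM exceeded STAG3 by 9.84-fold (2.06). STAG2, STAG1 and STAG3 held 70.7%, 26.6% and 2.70% of the position by the highest row, and 84.1%, 14.8% and 1.13% by summed rows. STAG3 was above 44.5% of all genes, and so close to the middle of the whole table, which includes many genes at or near 0.

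The SMC1 position was different. SMC1A stood at 6.25 FPKM and SMC1B, the form known from meiotic cells, at 9.59 FPKM, a difference of -0.55 in log2(FPKM + 1), so the meiotic form was the higher one by the highest row. By summed rows SMC1A came to 13.3 FPKM, against the unchanged 9.59 FPKM of SMC1B, and the difference turned to 0.43. SMC1B held 60.5% of the position by the highest row and 41.9% by summed rows. Which of the pair is higher thus depends on how the 6 rows of SMC1A are treated, while both settings put SMC1B at a level of the same order as SMC1A and above 79.4% (highest row) or 76.8% (summed rows) of all genes.

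The 3 meiotic subunits were therefore unequal among themselves. SMC1B was 17.3-fold above STAG3 and 200-fold above REC8, each of them a gene with 1 row, so the choice between highest and summed rows does not enter. The mitotic subunits ranged from 5.46 to 42.4 FPKM, all at 1 FPKM or more, against 0.0480 to 9.59 FPKM for the meiotic ones, and the ranges overlapped through SMC1B. These are paralogous genes, and the sources used here do not say how the authors' software divided reads between related transcripts.

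**Figure D3:**
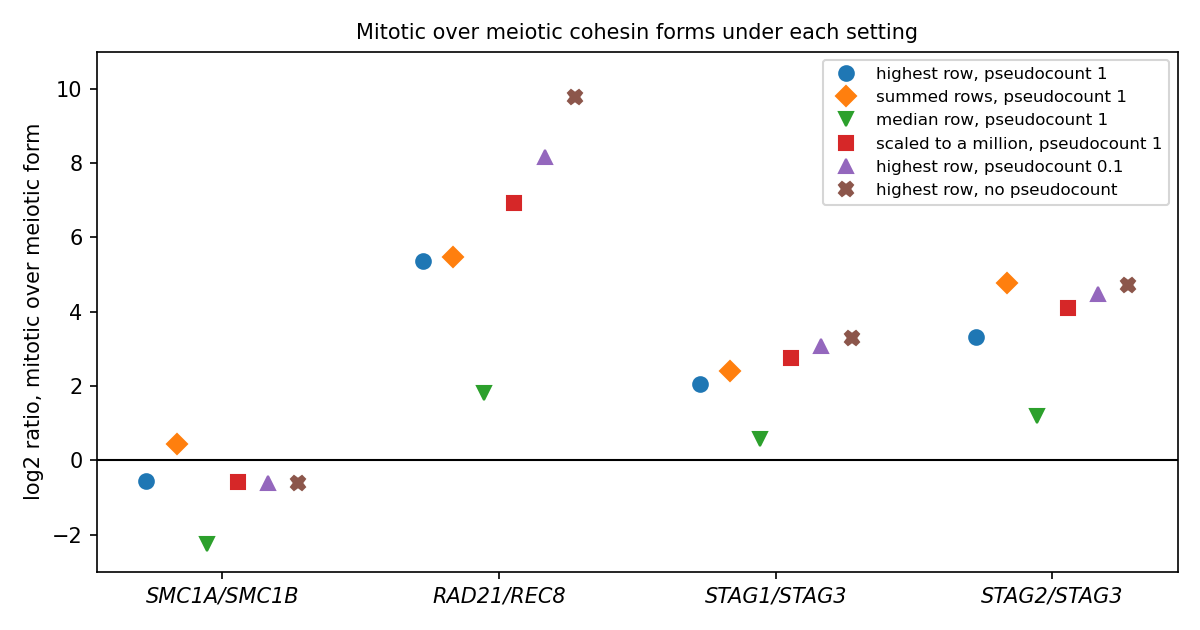
Log2 ratio of mitotic over meiotic form for each ring position (vertical axis), with 1 symbol for each way of taking the gene value or the pseudocount; values above the line at 0 mean a higher mitotic form. The RAD21/REC8, STAG1/STAG3 and STAG2/STAG3 ratios stay above 0 in all 6 settings, but only the median row could have taken them below 0. Pseudocounts and scaling keep the sign, and summing leaves REC8 and STAG3, with 1 row each, unchanged and cannot lower the mitotic forms. SMC1A/SMC1B is -0.55 by the highest row and 0.43 by summed rows.

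The forms at each position were also added. The highest total was that of the STAG subunits by summed rows and that of the kleisins by the highest row. By summed rows the SMC1 position came to 22.9 FPKM, SMC3 to 33.5 FPKM, the kleisins to 45.2 FPKM and the STAG subunits to 49.1 FPKM, a 2.15-fold span. By the highest row the totals were 15.8, 33.5, 42.5 and 20.5 FPKM, a 2.68-fold span. SMC3 was 5.37-fold above SMC1A alone by the highest row and 2.53-fold above it by summed rows.

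Genes that load, hold, release and cut cohesin were read from a list of 20 regulators, of which 18 were measured. HDAC8 and PTTG1 were not analysed here. The list also holds the kleisin RAD21L1, the CTCF paralogue CTCFL and TRIP13, which are counted with the regulators below. Of the 18, 15 reached 1 FPKM, beside 48.8% of all genes, with a median of 7.59 FPKM. MAU2, the loader partner of NIPBL, was at 4.10 FPKM, so both loader genes lay close together by the highest row (1.12-fold, NIPBL over MAU2) and 1.78-fold apart by summed rows. WAPL, which opens the ring and releases it from DNA, was at 14.1 FPKM and 31.0 FPKM summed, above NIPBL on both scales. The PDS5 proteins, which take part in both release and maintenance, stood at 8.34 FPKM (PDS5A) and 5.47 FPKM (PDS5B).

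The acetyltransferases that lock cohesin by modifying SMC3 were unequal. ESCO2, which acts during replication, stood at 78.2 FPKM and was the highest of the 18 regulators, 11.6-fold above ESCO1 at 6.73 FPKM, or 6.85-fold by summed rows. CDCA5 (sororin), which shields acetylated cohesin from WAPL, was at 13.2 FPKM. SGO1, the shugoshin that protects centromeric cohesin in mitosis, was at 29.1 FPKM, and SGO2, the form known for protecting REC8 in mouse oocytes, was at 8.63 FPKM over 4 rows that summed to 24.0 FPKM. The 3.37-fold gap between the shugoshins was thus 1.21-fold by summed rows.

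Separase (ESPL1), the protease that cuts the kleisin, stood at 2.00 FPKM, above 59.6% of all genes. The mitotic kinases PLK1 (59.7 FPKM) and AURKB (30.8 FPKM), which drive removal of arm cohesin, were higher than BUB1 (6.84 FPKM) and HASPIN (6.65 FPKM), which mark the centromere for the shugoshins and for Aurora B. TRIP13, an ATPase that remodels HORMA-domain proteins in mitosis and meiosis, stood at 44.3 FPKM. Below 1 FPKM in this list were DDX11, a helicase linked to cohesion, at 0.460 FPKM, RAD21L1 at 0.0319 FPKM, and CTCFL, the testis paralogue of CTCF, listed at 0. CTCFL lies outside the run of zeros that ends the table, but an exact 0 in a table without counts may be a failed estimate.

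The related SMC complexes were read for comparison. Condensin, which compacts mitotic chromosomes, had all 8 subunit genes at 1 FPKM or more with a median of 5.22 FPKM, led by SMC4 at 33.3 FPKM, NCAPG at 16.8 FPKM, SMC2 at 15.4 FPKM and NCAPH at 7.63 FPKM. Of 9 listed genes of the SMC5/6 complex and its partners, which act in DNA repair, 6 were measured, and SMC5 was not among them. All 6 measured genes were at 1 FPKM or more with a median of 7.32 FPKM. They were led by NSMCE4A at 64.0 FPKM, SLF1 at 13.1 FPKM, SMC6 at 7.81 FPKM and NSMCE1 at 6.83 FPKM. Both counts stand beside 48.8% of all genes. The cohesin, NIPBL and CTCF median of 6.98 FPKM lay between those of condensin and SMC5/6, but by summed rows it was the highest of the 3, at 12.6 FPKM against 6.03 FPKM for condensin and 9.79 FPKM for SMC5/6.

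Whether the level of SMC1B stood alone among meiotic genes was examined in a list of 30 genes of meiotic prophase, 26 of them measured. Of these 17 stood at 1 FPKM or more (65.4%), beside 48.8% of all genes, with a median of 2.01 FPKM. After scaling to a sum of 1000000 the count was 20 of 26, beside 61.3%. SYCP3, a rod protein of the chromosome axis on which meiotic cohesin sits, reached 495 FPKM. SPATA22, a partner in meiotic recombination, was at 55.8 FPKM, MND1, a cofactor of strand exchange, at 40.2 FPKM, and CCNB1IP1, a crossover ligase, at 25.6 FPKM. SYCE3 of the synaptonemal complex (0.743 FPKM), MEI1 (0.398 FPKM) and MEIOB, the partner of SPATA22 (0.319 FPKM), were the highest of the 9 genes below 1 FPKM. SYCP2 at 2.99 FPKM and the recombinase gene DMC1 at 0.0845 FPKM are further examples, named after their values were seen. REC114 at 13.4 FPKM, SPO11 at 12.9 FPKM, HORMAD1 at 12.0 FPKM and TERB2 at 10.5 FPKM were also named after their values were seen. With SYCP3, SPATA22, MND1 and CCNB1IP1 they lay above SMC1B at 9.59 FPKM, and the rest of the measured list lay below it. The level of SMC1B thus did not stand alone in this list. The meiotic genes stood on both sides of 1 FPKM, like SMC1B, STAG3 and REC8.

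Of 10 chromatin factors listed beside CTCF 8 reached 1 FPKM, beside 48.8% of all genes, with a median of 4.74 FPKM. RBPJ was at 35.9 FPKM, YY1, which also joins enhancers to promoters, at 15.8 FPKM, ZNF143, found at many promoter anchors, at 7.43 FPKM and ADNP at 6.38 FPKM. CTCF at 7.71 FPKM lay below RBPJ and YY1 and above the rest of this group, though by summed rows CTCF at 19.1 FPKM was above YY1 at 15.8 FPKM. PATZ1 (0.474 FPKM) and MAZ (0.274 FPKM) were below 1 FPKM. The E2F6-containing PRC1.6 complex, known in mouse cells to silence germline genes with Smc1b and Stag3 among them, had its 5 listed genes at 1 FPKM or more, beside 48.8% of all genes, and 3 of them at 5 FPKM or more, beside 28.4%. PCGF6 stood at 18.3 FPKM, MAX at 16.9 FPKM, MGA at 6.0 FPKM, L3MBTL2 at 2.38 FPKM and E2F6 at 1.24 FPKM.

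**Figure D4:**
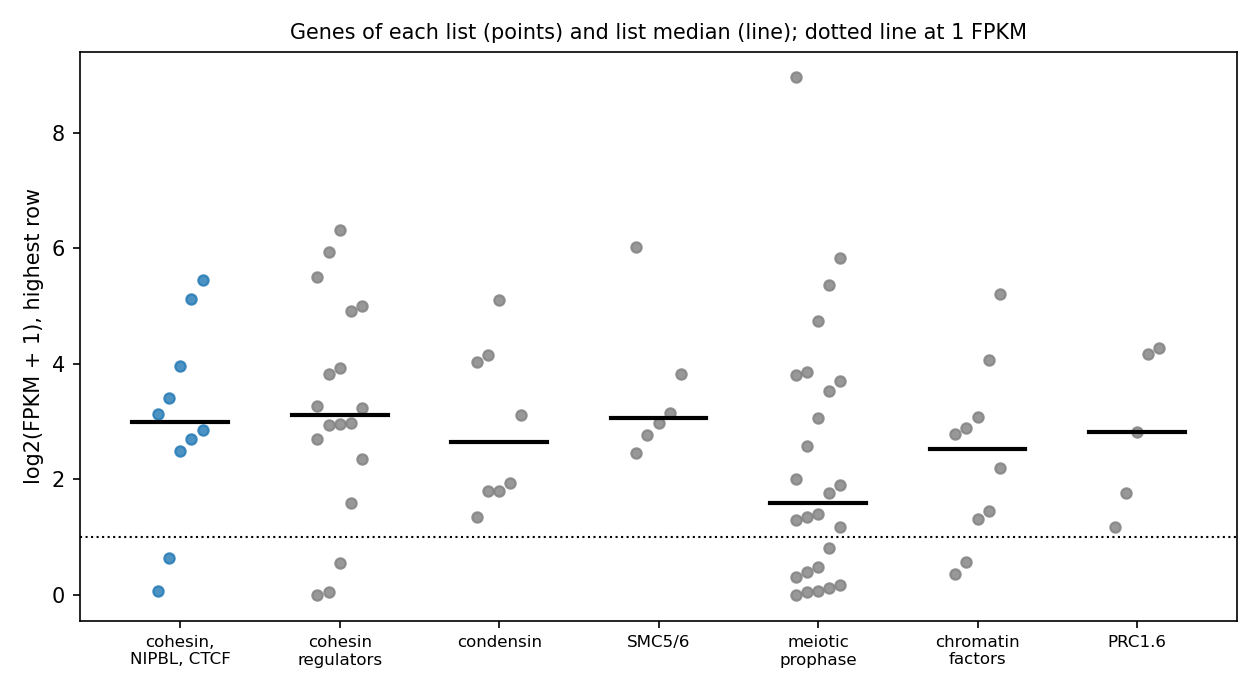
Level of every measured gene in each list as log2(FPKM + 1) of the highest row, with the list median as a black line and a dotted line at 1 FPKM. The cohesin, NIPBL and CTCF genes (median 6.98 FPKM) sit at the height of the regulators (7.59 FPKM), while the meiotic prophase genes (2.01 FPKM) run from 0 to 495 FPKM.

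Without eggs or earlier embryos in the analysis, transcripts left over from the egg and transcripts made by the embryo cannot be told apart for any of these genes. Nor can fewer cells with a transcript and less RNA in each cell be told apart in merged libraries.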

How the data were processed

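RNA of 4 pig morula libraries (titles marked PG) was measured by Smart-seq2, per the labels' protocols. The authors deposited 1 table of FPKM values, per the file headers, with 37571 Ensembl transcript rows and 1 column that merges the 4 libraries. The sources used here do not say how they were merged, or with which software and annotation. TopHat2 2.1.1, Cufflinks 2.2.1 and the build susScr11 appear among others in the submitters' processing notes, with no role. Of the rows, 4534 lay above 0 and under 1e-06 FPKM, so whole reads could not be recovered and depth is unknown. The last 474 rows are all at 0. None holds a gene of the set.

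From this table, Python 3.11.15 and pandas 2.3.3 took each gene's highest row, sum of rows and rank. Expressed means 1 FPKM or more. Log2 ratios are differences of log2(FPKM + 1), mitotic over meiotic, unless another pseudocount is named. Fold values are quotients of FPKM without a pseudocount. No test was run, since there is 1 column. The steps that take the highest row, the sum and their ratio returned fold changes planted in the values, which they must by construction. Comparisons between genes and list counts were not part of that check. All 18 measured regulators are named, and from each other list the 4 highest members and up to 3 on the minority side of 1 FPKM; other genes are said to be chosen later or belong to lists of 5 or fewer, and cell markers are named as examples or at 0. The set and the lists were chosen with earlier results of these data known. The list of chromatin factors was divided from PRC1.6 after its values were seen, and a doubled name was removed from the meiotic list. IHO1 was matched by its older name, CCDC36. Alternatives were summed or median rows, thresholds of 0.5 and 5 FPKM, pseudocounts of 0.1 or none, rows at 0.1 FPKM or more, scaling to a sum of 1000000 and omission of the trailing rows. Sequences of the pig genes were not used here.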

Additional observations from a re-analysis of the deposited data

How the results depend on the processing

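The count of cohesin, NIPBL and CTCF genes at 1 FPKM or more was 8, beside 48.8% of all genes. It was 8 with summed rows, beside 50.6%, and 9 after scaling to a sum of 1000000, beside 61.3%. Without the trailing rows it was again 8, which had to be so because none of those rows holds a gene of the set. Other thresholds gave 9 at 0.5 FPKM, beside 56.5%, and 7 at 5 FPKM, beside 28.4%. The SMC1A/SMC1B difference (-0.55) turned to 0.43 with summed rows and was -2.26 with the median row, which by construction lowers genes with several rows. RAD21/REC8 (5.37) was 1.82 with the median row, 8.17 with a pseudocount of 0.1, 9.79 with none and 6.92 after scaling to a sum of 1000000. STAG1/STAG3 (2.06) was 0.58, 3.09, 3.30 and 2.75 under the same settings. STAG2/STAG3 (3.32) was 4.77 with summed rows and 1.19, 4.48, 4.71 and 4.11 under those settings. With summed rows SMC1A came to 13.3, STAG2 to 41.3, NIPBL to 11.8 and CTCF to 19.1 FPKM, and with rows at 0.1 FPKM or more alone to 13.2, 41.3, 11.8 and 19.1 FPKM. That last setting leaves no row of REC8. The median row gave 1.22 FPKM for SMC1A, 2.71 for RAD21, 1.33 for STAG1, 2.54 for STAG2, 1.53 for NIPBL and 2.18 for CTCF. Scaling to a sum of 1000000 multiplies all values by 3.28: SMC1A became 20.5, RAD21 139, STAG1 17.9, STAG2 47.6, SMC3 110.0, SMC1B 31.4, REC8 0.157, STAG3 1.82, NIPBL 15.0 and CTCF 25.3. At 5 FPKM the counts were 4 of 8 for condensin, 9 of 26 for meiotic prophase, 5 of 10 for chromatin factors, 3 of 5 for PRC1.6 and 0 of 8 for fibroblast markers, beside 28.4% of all genes. Fibroblast markers numbered 3 and cumulus markers 2 at 0.5 FPKM or after scaling, and cumulus markers 2 with summed rows. The other 45 list counts moved by 1.5 times or less, and those without the trailing rows could not move, since no listed gene lies only there. No paired analysis was possible because the 4 libraries share 1 column, and leaving out each replicate was not run for the same reason. Unknown depth limits the values of REC8, RAD21L1 and other genes near 0 most.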
